A study of Mus musculus with 27 samples.

Results

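Red blood cell mRNA was followed through 9 genes, the globins Hbb-y, Hbb-bh1, Hba-x, Hba-a1 and Hba-a2 and the erythroid genes Alas2, Slc4a1, Klf1 and Gata1, read as a measure of blood in each tissue of a limb bud (LB) study in the mouse. All 9 were found by symbol among the 23279 genes of the table. The embryonic groups were the branchial arch (BA), heart (Ca), tail bud (TB), forelimb bud (FLB) and hindlimb bud (HLB) of E10.5 Slc:ICR embryos, and early FLBs and HLBs that the labels give as E10.0. A figure legend of the study places the early FLBs before the early HLBs. By it the early LBs differ in stage as well as in limb type, and the step to E10.5 is longer in the FLBs. All embryonic groups were amputated tissue for which no sort is named. The in vitro groups were ES–FLB and ES–HLB, limb bud-like mesenchyme grown to culture day 9 from 1 mouse embryonic stem cell line, EB5, in which a green fluorescent protein is knocked into 1 copy of Hand2 (Hand2::GFP +/-), and sorted as GFP-positive cells. Both cultures received BMP4 and Matrigel first, after which the forelimb culture received retinoic acid and the hindlimb culture a retinoic acid antagonist. Both were then kept in hydrocortisone and methylcellulose, with the BMP inhibitor LDN193189 and after it Wnt3 added for a time. Each group had 3 libraries, 26 of 27 were used, and replicate 2 of the E10.5 HLBs was left out because it holds no values on several chromosomes.

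Haemoglobin is built from 2 α-like and 2 β-like globin chains, each carrying a haem. The first red cells of the mouse arise in the yolk sac, enter the circulation while still nucleated, and mature there as a cohort. They use the β-like chains βH1 (Hbb-bh1) and εy (Hbb-y) and the α-like chain ζ (Hba-x) along with adult α chains (Hba-a1 and Hba-a2). In these cells βH1 gives way to εy and ζ to α as they mature. Alas2 makes the first intermediate of haem in red cells, Slc4a1 is the band 3 anion exchanger of the red cell membrane, and Gata1 and Klf1 are the transcription factors that drive erythroid genes. In bulk tissue, fewer red cells and less of an mRNA per red cell cannot be told apart.

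The early β-like genes lie on chromosome 7 (GRCm38, reverse strand), Hbb-bh1 at chr7:103841638-103843162 and Hbb-y at chr7:103851754-103853207. The α-like genes lie in order on chromosome 11 (forward strand), Hba-x at chr11:32276600-32278116, Hba-a1 at chr11:32283672-32284486 and Hba-a2 at chr11:32296492-32297310. The coding sequences decide which genes can be told apart by reads, so the first 60 coding bases of the pairs are shown, from GENCODE transcripts, with capitals where the 2 genes of a pair differ.
Hbb-y: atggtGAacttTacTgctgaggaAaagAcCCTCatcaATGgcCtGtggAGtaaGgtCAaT
Hbb-bh1: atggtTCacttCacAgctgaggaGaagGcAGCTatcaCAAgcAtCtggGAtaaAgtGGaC
Hba-x: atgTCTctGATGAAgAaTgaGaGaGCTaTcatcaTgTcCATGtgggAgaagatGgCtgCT
Hba-a1: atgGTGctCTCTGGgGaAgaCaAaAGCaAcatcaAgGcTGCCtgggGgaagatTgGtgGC
Hbb-y and Hbb-bh1 shared 76.4% of their 441 coding bases and Hba-x and Hba-a1 61.7% of 426, and no stretch of 80 bases was common to the transcripts of either pair. Hba-a1 and Hba-a2 differed at 1 of 426 coding bases, and 61.1% of the 80-base stretches of the Hba-a1 transcript also stood in that of Hba-a2.

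The remaining members are single genes, Alas2 at chrX:150547417-150570622, Gata1 at chrX:7959260-7976663, Slc4a1 at chr11:102348820-102365281 and Klf1 at chr8:84901982-84905291. The 120 bases before the start of transcription were searched on both strands for CACCC, the core of the sites that KLF1 binds, for GATAA, a site of GATA factors, and for CCAAT. RefSeq promoters (GRCm38.p6) were at hand for 7 members. CACCC was found in all 7 and in 31.3% of 27025 promoters of the same length, GATAA in 3 and in 10.7%, and CCAAT in 4 and in 22.1%. The 7 include Hba-a1 and Hba-a2, whose stretches are nearly the same sequence with the same CACCC and CCAAT matches. They do not count as separate cases, and Hba-a2 had no usable level in these data. A match of letters is not a binding site. A pair of globin promoters and those of Alas2 and Klf1 are shown along each gene's strand, with the matches in capitals.
Hbb-y, chr7:103853208-103853327: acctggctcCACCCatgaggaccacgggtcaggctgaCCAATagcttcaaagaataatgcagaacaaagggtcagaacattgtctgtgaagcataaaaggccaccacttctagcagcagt
Hba-x, chr11:32276480-32276599: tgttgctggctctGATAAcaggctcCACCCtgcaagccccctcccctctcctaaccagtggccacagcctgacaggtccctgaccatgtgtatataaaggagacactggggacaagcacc
Alas2, chrX:150547297-150547416: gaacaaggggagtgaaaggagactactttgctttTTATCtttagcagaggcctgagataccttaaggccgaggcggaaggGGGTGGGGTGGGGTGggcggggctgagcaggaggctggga
Klf1, chr8:84901862-84901981: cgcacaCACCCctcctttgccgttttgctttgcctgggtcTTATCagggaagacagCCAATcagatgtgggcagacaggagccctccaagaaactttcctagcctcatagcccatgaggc
The Klf1 stretch holds all 3 kinds of match, Hba-x and Alas2 hold CACCC with GATAA, and Hbb-y holds CACCC with CCAAT. In Alas2 the CACCC matches lie on the opposite strand, where the 3 of them adjoin each other.

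Values are CPM as deposited, reads relative to a library total of 1000000, brought to a common scale over the libraries and called scaled CPM. The spacing of the lowest values gives an estimate of 5543733 to 22140965 reads per library, with 19640496 or more in the early LBs and 8541889 or fewer elsewhere, so that 3 reads, the floor used here, correspond to 0.147 to 0.541 scaled CPM. Heart, branchial arch and tail bud markers were highest in the tissues labelled so, whereas the sum of the limb bud markers did not set the LBs apart from BA. The summed level of the 4 heart markers was 8106 to 9702 scaled CPM in Ca and at most 8.65 elsewhere, that of the 3 branchial arch markers 274 to 295 in BA and at most 16.3 elsewhere, and that of the 4 tail bud markers 319.8 to 360.5 in TB and at most 139 elsewhere. The 5 limb bud markers summed to 537 to 1256 in the embryonic and ES–LBs, 820.4 to 873 in BA and 109 to 298 in TB and Ca. Of the 9 members, 8 passed the filter of 1 scaled CPM in 3 libraries. Hba-a2 did not pass. It was listed at 0 in the 3 Ca libraries and at 0.00771 to 0.00826 in the other 23, which is far below the worth of 1 read and did not follow Hba-a1. It is not used further. How reads that match both copies were counted is not stated, so Hba-a1 may hold reads of both.

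**Figure D1:**
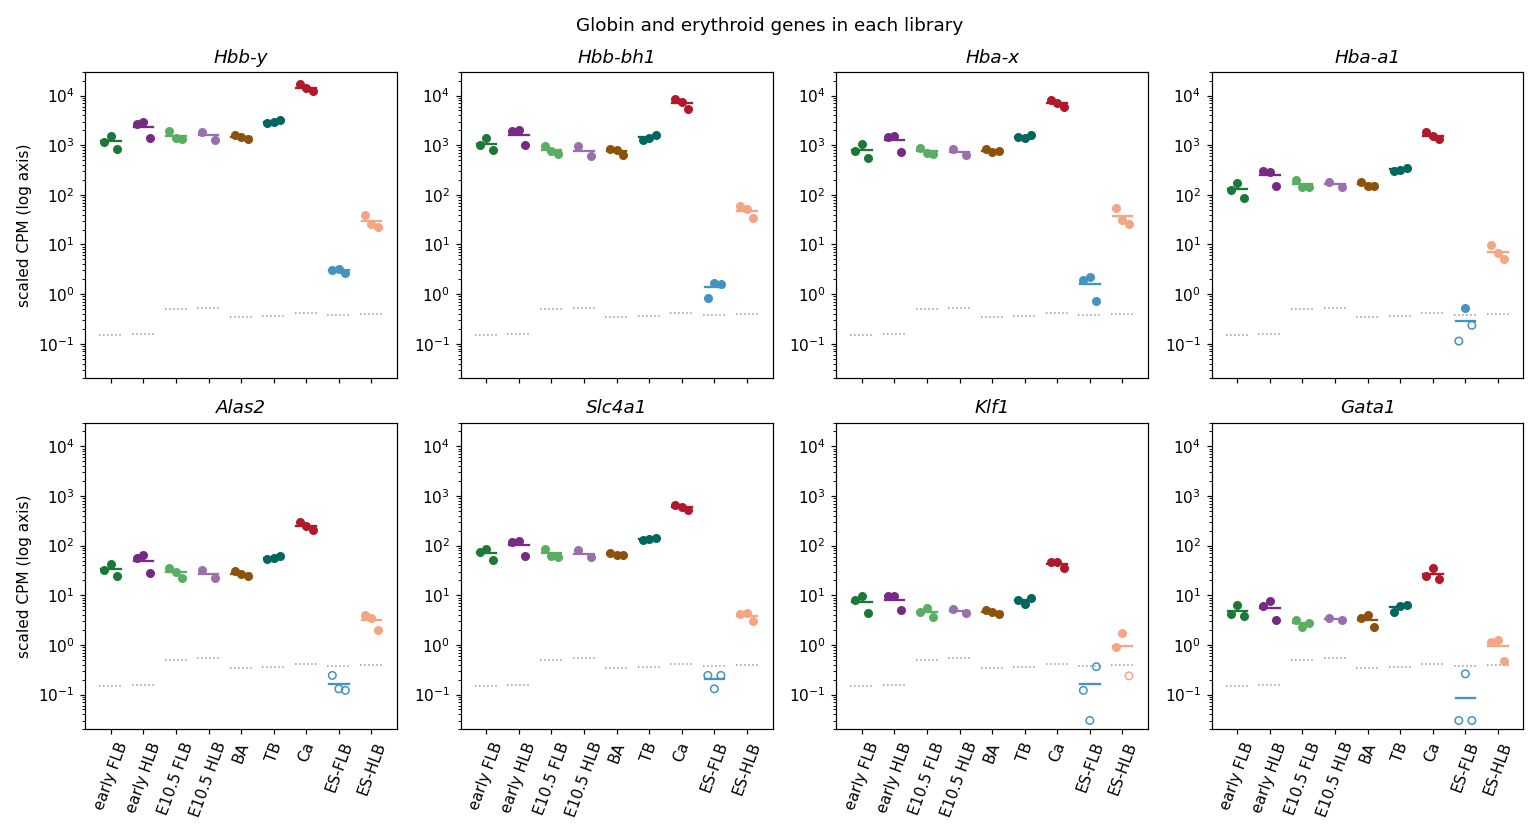
Scaled CPM on a log axis for 8 members, 1 point per library, with group means as bars and the mean floor of 3 reads as dotted lines. Open points are under 3 reads, and values of 0 are drawn near the lower edge. The 3 Ca libraries lie above every other library in each panel, and both ES–LB groups lie below the embryonic groups.

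Globin mRNA was a small but clear part of every embryonic library. The listed globin genes took 0.209 to 0.626% of the deposited CPM in the LBs, 0.302 to 0.368% in BA, 0.611 to 0.696% in TB and 2.31 to 3.23% in Ca. In ES–HLB they took 0.00949 to 0.0175%, and in ES–FLB 0.000571 to 0.000860%. The level order of the groups was alike for all 8 genes at its ends, with Ca first, ES–HLB eighth and ES–FLB ninth. The middle was mostly unresolved. For Hbb-y the order from high to low was Ca, TB, early HLB, E10.5 HLB, E10.5 FLB, BA, early FLB, ES–HLB and ES–FLB, and libraries of neighbouring groups overlapped at every step from TB to the early FLBs.

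The heart held the most of every member. Hbb-y, the εy chain, was at 17289, 14039 and 12077 scaled CPM in Ca and at 1927, 1391 and 1309 in the E10.5 FLBs. Hbb-bh1, the βH1 chain, was at 8454, 7506 and 5358 in Ca against 974, 779 and 666. Hba-x, the ζ chain, was at 8179, 7158 and 5799 against 874, 706 and 663. In each of these genes the lowest heart library stood far above the highest FLB library. Alas2 was at 297, 254 and 203 scaled CPM in Ca and at 36.2, 28.8 and 22.0 in the E10.5 FLBs. Gata1, the least abundant member, was at 24.9, 35.4 and 20.8 against 3.23, 2.30 and 2.78. The ratio of the group means lay within a narrow band, from 8.44 for Slc4a1 to 9.77 for Gata1.

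All 8 members tested rose in Ca over the E10.5 FLBs (limma, Benjamini-Hochberg adjusted over all genes tested), with log2 changes of 3.05 ± 0.27 (SE, Gata1) to 3.27 ± 0.29 (Hba-a1) and adjusted p from 1.4e-11 to 8.0e-08. Of all 14446 genes tested, 74.2% were called in this comparison, and the median log2 change was 3.12 over the members and 0.01 over all genes. Against BA, which shares the heart libraries, the ratios of means were 8.40 to 9.84, and all 8 were again called higher, where 74.3% of all genes were called. Since the members follow each other from library to library, their p-values are not independent.

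Genes of the red cell beyond the members were read from lists. Of 17 genes of the red cell membrane and cytoskeleton, 16 were higher and 1 lower in Ca than in the E10.5 FLBs. Spnb1 (β-spectrin) rose by 3.28 ± 0.26 on the log2 scale, adjusted p = 1.2e-09, while Epb4.1 (protein 4.1, used in many cells) was lower, at −0.35 ± 0.04, adjusted p = 1.8e-10. Tmod1 (tropomodulin, also a sarcomere protein) rose by 6.99 ± 0.22, adjusted p = 5.2e-23, more than any member. Of 14 genes of haem synthesis and iron supply, 12 were higher and 1 lower. Slc25a37 (mitoferrin) rose by 2.58 ± 0.23, adjusted p = 6.3e-09, Alad by 1.35 ± 0.10, adjusted p = 2.2e-11, and Tfrc, the transferrin receptor, by 0.64 ± 0.11, adjusted p = 3.2e-05. Of 12 erythroid regulators, 6 were higher and 4 lower. Zfpm1, the partner of GATA1, rose by 3.17 ± 0.13, adjusted p = 4.9e-17, Ldb1, part of the same complexes and used in many cells, was at −0.63 ± 0.05, adjusted p = 2.7e-13, and Bcl11a, a repressor of early globins in adult red cells, at −2.33 ± 0.20, adjusted p = 3.5e-09. Bcl11a was also at 97.3 to 107 scaled CPM in the sorted ES–LB cells, where the members were scarce, so its level is not that of red cells alone. Of 8 other red cell genes tested, 6 were higher and 1 lower, with Prdx2 not called at 0.04 ± 0.04 (adjusted p = 0.43), Bnip3l at 0.22 ± 0.06 (adjusted p = 0.0028) and Xpo7 at −0.32 ± 0.05 (adjusted p = 2.1e-07).

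Markers of other cells moved with the heart as well. Endothelial markers, 9 of 13 higher and 2 lower, summed to 1109 to 1183 scaled CPM in Ca against 421 to 429 in the E10.5 FLBs, and none was at 0. Their 3 most abundant genes rose less than the members, Cdh5 by 1.31 ± 0.14, Kdr by 1.30 ± 0.10 and Pecam1 by 1.48 ± 0.09 on the log2 scale, with adjusted p of 8.4e-08, 3.6e-12 and 1.3e-15. All 8 megakaryocyte and platelet markers were higher, with Itga2b at 2.47 ± 0.22 (adjusted p = 8.1e-12), Pf4 at 1.93 ± 0.22 (2.1e-09) and Ppbp at 1.37 ± 0.27 (3.5e-05), and their sum was 60.96 to 109 scaled CPM against 14.7 to 19.0. Of 12 macrophage markers 1 was higher and 1 lower, with sums of 45.2 to 71.8 against 27.6 to 31.9. The higher one was Lyz2 at 4.07 ± 0.27 (adjusted p = 9.3e-15), while Csf1r at 0.12 ± 0.29 (adjusted p = 0.73) and Mrc1 at −0.40 ± 0.27 (adjusted p = 0.18) were not called. The part of these cells in the heart values of the members was not tested.

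The tail bud held more of the members than the E10.5 FLBs, a ratio of means between 1.72 for Klf1 and 2.06 for Gata1. Hbb-y was at 2764, 2880.4 and 3157 scaled CPM in TB, all above the highest FLB library. Slc4a1 was at 131, 133 and 145 against 86.7, 62.7 and 60.2. Klf1 was at 8.03, 6.78 and 8.73 against 4.59, 5.43 and 3.64, also without overlap. In limma 7 were called higher, with log2 changes of 0.84 ± 0.30 (Hbb-bh1, adjusted p = 0.031) to 1.01 ± 0.29 (Hba-a1, adjusted p = 0.0080), where 45.6% of all genes were called. Klf1, at 0.73 ± 0.31, missed the threshold with adjusted p = 0.061, but was called under 4 other settings, among them a pseudocount of 1 (0.68, adjusted p = 0.031) and a fit of the 2 groups alone (0.73, adjusted p = 0.0011). Hbb-bh1 lost its call without TB replicate 2 or 3 or E10.5 FLB replicate 2 or 3 (0.84, 0.75, 0.83 and 0.71 on the log2 scale), and Hba-x without TB replicate 3 or E10.5 FLB replicate 2 or 3 (0.95, 0.96 and 0.92).

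Among the red cell lists in TB, 13 of 17 membrane genes were higher and 1 lower, 8 of 14 haem and iron genes were higher, of the 12 regulators 4 were higher and 3 lower, and of the 8 other red cell genes 1 was higher and 1 lower. The median log2 changes were 0.80, 0.32, 0.32 and 0.04, against 0.96 over the members. Spnb1 rose by 0.90 ± 0.26 (adjusted p = 0.0080), Tmod1 by 0.72 ± 0.22 (adjusted p = 0.0081), Slc25a37 by 0.93 ± 0.23 (adjusted p = 0.0024) and Zfpm1 by 0.62 ± 0.13 (adjusted p = 0.00042) on the log2 scale. Alad rose by 0.45 ± 0.10 (adjusted p = 0.0012) and Tfrc by 0.36 ± 0.11 (adjusted p = 0.011). Bcl11a was lower at −2.54 ± 0.20 (adjusted p = 4.6e-09), as were Ldb1 at −0.27 ± 0.05 (adjusted p = 2.6e-05) and Prdx2 at −0.28 ± 0.04 (adjusted p = 3.1e-06), while Epb4.1 at −0.01 ± 0.04 (adjusted p = 0.88) was not called. Endothelial markers summed to 482 to 527 scaled CPM in TB against 421 to 429, with 5 of 13 higher and 1 lower. Among the macrophage markers 1 of 12 was higher, with sums of 39.9 to 57.4 against 27.6 to 31.9, and among the platelet markers 1 of 8.

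BA and the E10.5 HLBs were each compared with the E10.5 FLBs, and no difference in the members was called. BA and the E10.5 HLBs were not tested against each other. Hbb-y was at 1624, 1448 and 1338 scaled CPM in BA and at 1849 and 1295 in the E10.5 HLBs, both within or close to the range of the FLBs. None of the 8 members was called between BA and the E10.5 FLBs (0 at an unadjusted p under 0.05), where 20.7% of all genes were called, and none between the E10.5 HLBs and FLBs (likewise 0), where 21% were. The log2 differences were −0.09 to 0.17 for BA and −0.10 to 0.22 for the HLBs, with SEs of 0.24 to 0.38, so that small differences could not be detected. Both comparisons share the E10.5 FLB libraries.

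**Figure D2:**
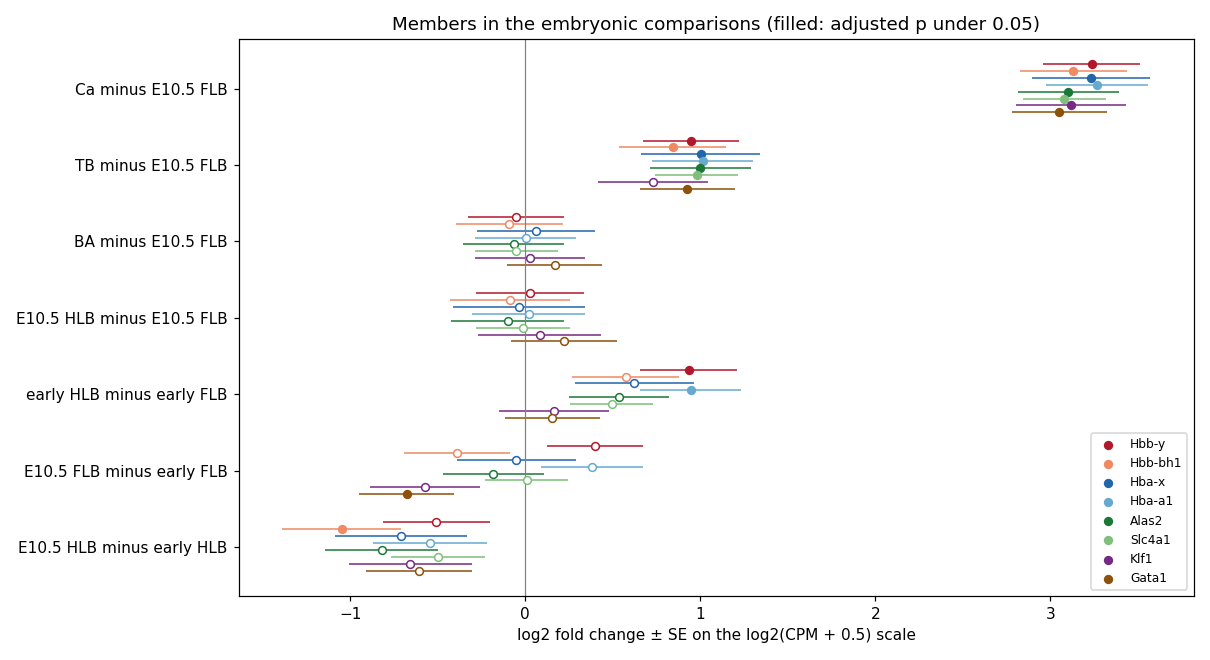
Log2 fold changes with SE bars for 8 members in 7 embryonic comparisons, filled where the adjusted p was under 0.05. The members cluster between 3.05 and 3.27 for Ca, between 0.73 and 1.01 for TB and near 0 for BA and the E10.5 HLBs, whereas they spread out between stages and between the early LBs.

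The early HLBs held the most globin mRNA of the LBs, but 1 library went against the other 2. Hbb-y was at 2681, 2878 and 1379.6 scaled CPM in the early HLBs and at 1181, 1553 and 834 in the early FLBs, so that the groups overlapped. Alas2 was at 55.3, 65.7 and 28.7 against 33.0, 42.5 and 24.2. For all 8 members early HLB replicate 3 was the lowest of its group, and the mean of the other 2 was 1.87 to 2.17 times its value. Early FLB replicate 3 was likewise the lowest of its group for every member. In limma 2 of 8 members were higher in the early HLBs, Hbb-y by 0.93 ± 0.28 (adjusted p = 0.023) and Hba-a1 by 0.95 ± 0.29 (adjusted p = 0.028), where 19% of all genes were called. Neither was called without early FLB replicate 1 or 3 or early HLB replicate 1 or 2 (0.68 to 0.95 on the log2 scale), whereas 4 members were called without early HLB replicate 3, Alas2 (0.89) and Slc4a1 (0.81) being added. With only the 2 groups in the fit none was called.

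In the FLBs the log2 changes of the members between stages had both signs, and no rise was called. The 6 early LB libraries, of both limb types, stand apart in depth from all others, with 19640496 to 22140965 estimated reads against 8541889 or fewer, so that stage and sequencing depth cannot be told apart in any comparison of early with E10.5 LBs or with ES–LBs. In the FLBs, from early to E10.5, Hbb-y went from 1181, 1553 and 834 to 1927, 1391 and 1309 scaled CPM, and Hbb-bh1 from 1022, 1411 and 789 to 974, 779 and 666. Gata1 went from 4.27, 6.33 and 3.81 to 3.23, 2.30 and 2.78, with no overlap, and was the 1 of 8 members called (−0.68 ± 0.27, adjusted p = 0.032), where 59% of all genes were called. Klf1, at −0.57 ± 0.31 (adjusted p = 0.12), was not. The Gata1 call ended on the deposited CPM (−0.53, adjusted p = 0.098), and without early FLB replicate 2 (−0.48) or E10.5 FLB replicate 2 (−0.57) or 3 (−0.68), and without early FLB replicate 3 Klf1 was called as well (−0.89, adjusted p = 0.019).

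In the HLBs every member had a lower mean at E10.5. Hbb-bh1 was at 1908, 1992 and 986 scaled CPM early and at 943 and 597 at E10.5. These groups did not overlap for Hbb-bh1, the 1 member called (−1.05 ± 0.34, adjusted p = 0.027), where 29% of all genes were called. The other 7 lay between −0.82 (Alas2, adjusted p = 0.065) and −0.50 (Slc4a1, adjusted p = 0.18). This count depended on single libraries. Without early HLB replicate 3, 6 members were called lower, and 0 were called without early HLB replicate 1 or 2 or E10.5 HLB replicate 3, where Hbb-bh1 was at −0.90, −0.87 and −0.72. The last of these leaves 1 library of E10.5 HLB, which is assumed to vary like the other groups. The stage change did not differ between limb types for any of the 8 members by the interaction term (20.7% of all genes were called, and 2 members, Hbb-y and Hba-a1, had an unadjusted p under 0.05), but it did for 2 members without early HLB replicate 3, Hbb-y at −1.24 (adjusted p = 0.024) and Hba-a1 at −1.24 (adjusted p = 0.038). Macrophage markers, the sign of other blood cells, moved apart from the members between stages, with 12 of 12 higher at E10.5 in the FLBs (sums of 1.23 to 1.57 against 27.6 to 31.9 scaled CPM) and 1 of 12 in the HLBs. By the figure legend the step between stages was longer in the FLBs. Limb type and the length of this step cannot be told apart in these comparisons of the FLBs with the HLBs.

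Within a group the members rose and fell together from library to library. Deviations of the 8 members from their group means were compared over the 20 embryonic libraries, and the 28 pairs of genes had Pearson's r of 0.65 to 0.99 with a median of 0.94. This is a description with no test, since the genes of a library share its dissection and depth. The mean deviation reached from 0.636 times the group's level in early HLB replicate 3 to 1.35 times in early FLB replicate 2, and in TB it stayed between 0.939 and 1.09 times.

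**Figure D3:**
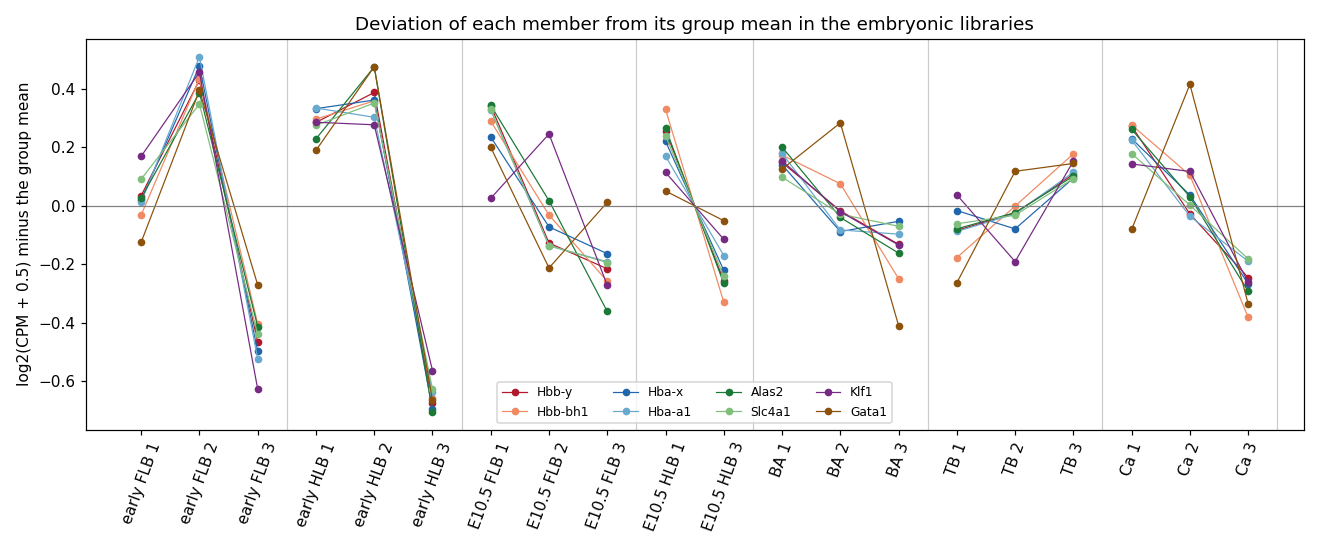
Deviation of log2(CPM + 0.5) from the group mean for 8 members in 20 embryonic libraries, with lines joining the libraries of a group, which have no order. The lines of the 8 genes run together in most libraries, lowest in early HLB replicate 3, with Gata1 and Klf1, the least abundant genes, straying most.

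Other genes followed the members closely. Among the 10 genes whose log2 level was most like the mean of the 8 members over the 20 embryonic libraries were Slc25a37, Trim10, Acp5, Rhag, 1300017J02Rik, Ank1, Tal1, Ermap and Car2, with Pearson's r of 0.98 to 0.99. Ca sits far from the other groups and sets much of that r. Over the 17 libraries without Ca these genes had r of 0.89 to 0.96. Of these 9, 7 stood in the red cell lists. Rhag is the Rh-associated glycoprotein, Ank1 the red cell ankyrin and Car2 carbonic anhydrase 2, whereas Acp5, an acid phosphatase best known from osteoclasts, and 1300017J02Rik were in none.

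The make-up of the globin mRNA, a ratio within each library, differed between the early and E10.5 LBs, which also differ in depth as given above. Hbb-bh1 made up 46.4, 47.6 and 48.6% of Hbb-y plus Hbb-bh1 in the early FLBs and 41.6, 40.9 and 41.7% in the early HLBs. At E10.5 the share was 33.6, 35.9 and 33.7% in the FLBs and 33.8 and 31.6% in the HLBs. The 3 early FLB libraries were above the 3 early HLB libraries, and these above all libraries of E10.5. By the figure legend the early FLBs were also the earlier group, so limb type and stage cannot be told apart between the early LBs. The difference between E10.5 and early LBs was −13.1 percentage points in the FLBs, −8.73 in the HLBs and −10.9 on average, with p = 0.005 in an exact two-sided permutation test of the stage labels within limb type, the smallest p that its 200 labellings allow. Early HLB replicate 3, low in every member's level, was at 41.7% in this share and so did not stand apart.

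The share at E10.5 was alike in all tissues. It was 34.2, 35.2 and 32.0% in BA, 32.8, 34.8 and 30.7% in Ca and 31.4, 33.1 and 33.9% in TB, each overlapping with the FLBs (mean differences of −1.61 to −0.59 points, exact permutation p of 0.30 to 0.60 before adjustment). The mean in Ca was 32.8% ± 2.05 (SD, n = 3), beside 34.4% ± 1.31 in the FLBs, although the level of both genes was far higher in Ca.

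The α-like genes changed in the same direction by less. Hba-x made up 86.2, 85.9 and 86.4% of the α-like CPM in the early FLBs, 83.2, 83.8 and 82.7% in the early HLBs, 81.2, 82.8 and 82.5% in the E10.5 FLBs and 82.2 and 81.1% in the E10.5 HLBs. E10.5 minus early was −4.00 points in the FLBs, −1.63 in the HLBs and −2.81 on average (exact two-sided permutation p = 0.005, again the smallest that 200 labellings allow). In BA, Ca and TB the share was 81.0 to 83.2%. The adult β genes Hbb-b1 and Hbb-b2 varied against each other between the libraries of several groups. These and the s-allele gene listed as Beta-s were summed. Their sum was 0.193 to 0.377% of all β-like CPM in the early FLBs, 0.305 to 0.423% in the early HLBs and 0.603 to 0.874% in the 14 embryonic libraries of E10.5. With 3 or 2 libraries a group, the exact test of 1 pair of groups cannot go below p = 0.10, and no single pair among the 81 tested for shares and ratios passed adjustment (smallest adjusted p = 0.25).

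**Figure D4:**
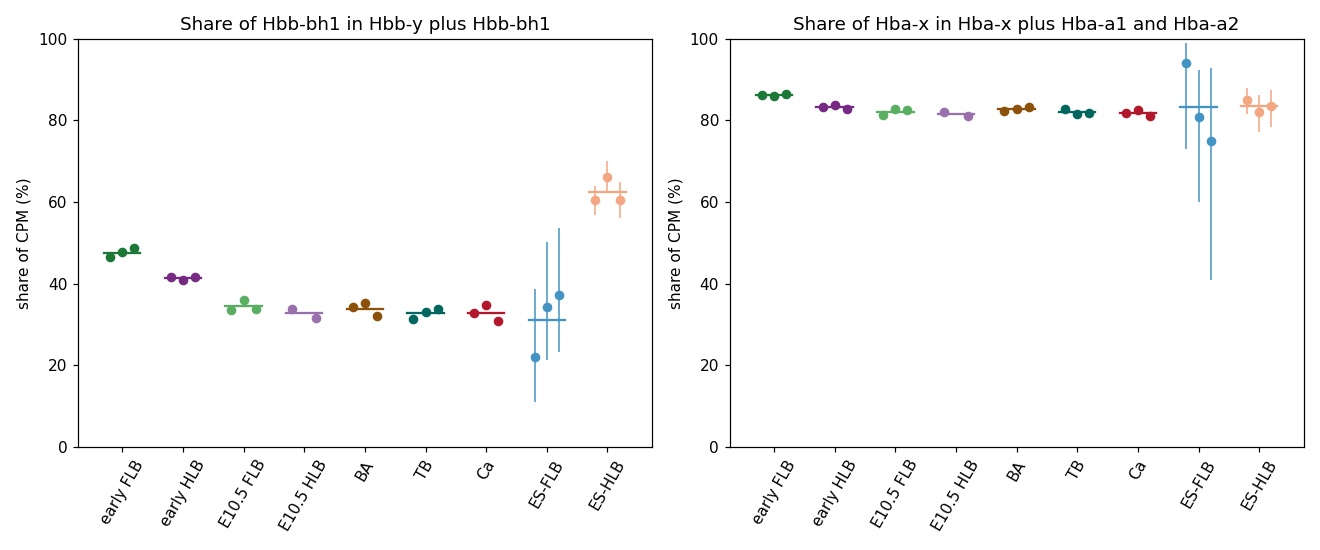
Share of Hbb-bh1 in the early β-like genes and of Hba-x in the α-like genes, in percent of CPM, 1 point per library with group means as bars and, for the ES–LBs, 95% Wilson intervals of the reads. The Hbb-bh1 share steps down from the early FLBs to the early HLBs and the E10.5 tissues, and the 3 ES–HLB libraries lie above all of these at 60.4 to 66.2%.

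Per length of transcript, the α-like genes reached 0.295 to 0.365 times the level of the early β-like genes in every embryonic library, with no difference in mean between any tested pair of embryonic groups above 0.0263. The values listed for Hba-a2 are not in the α-like level, but Hba-a1 may hold reads of both copies, as above. On the same scale Hbb-bh1 was 47.2 to 49.4% of the early β-like level in the early FLBs and 32.2 to 34.5% in the E10.5 HLBs. The length used is that of 1 GENCODE transcript per gene.

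Relative to globin mRNA, the erythroid genes were nearly constant over embryonic tissues, with the early FLBs as an exception. Per 1000 CPM of the 4 globin genes, Alas2 was at 10.6, 10.1 and 10.7 CPM in the early FLBs and at 7.93 to 9.82 in the other 17 embryonic libraries. Slc4a1 was at 18.4 to 23.5 CPM in all 20. It was at 18.4 to 19.2 in the early HLBs, below the early FLBs (20.8 to 23.5) and the E10.5 HLBs (21.2 and 21.7). Klf1 was at 2.53, 2.31 and 1.92 in the early FLBs and at 1.12 to 1.80 in the other 17, and Gata1 at 1.37, 1.503 and 1.69 in the early FLBs and at 0.698 to 1.26 in the other 17. The 3 early FLB libraries were thus the highest of all embryonic libraries for Alas2 and for both transcription factors. In the early HLBs Klf1 was at 1.51 ± 0.073 and in the E10.5 HLBs at 1.51 ± 0.20, and Gata1 at 1.02 ± 0.096 and 1.04 ± 0.21 (SD, n = 3 and 2). The step of these transcription factors seen in the FLBs was thus not seen between these groups. The exact permutation p was 0.10 for the early FLBs against the early HLBs or the E10.5 FLBs, the smallest possible (adjusted p = 0.25). The early FLBs are also the earliest group by the figure legend, so limb type and stage cannot be told apart here.

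**Figure D5:**
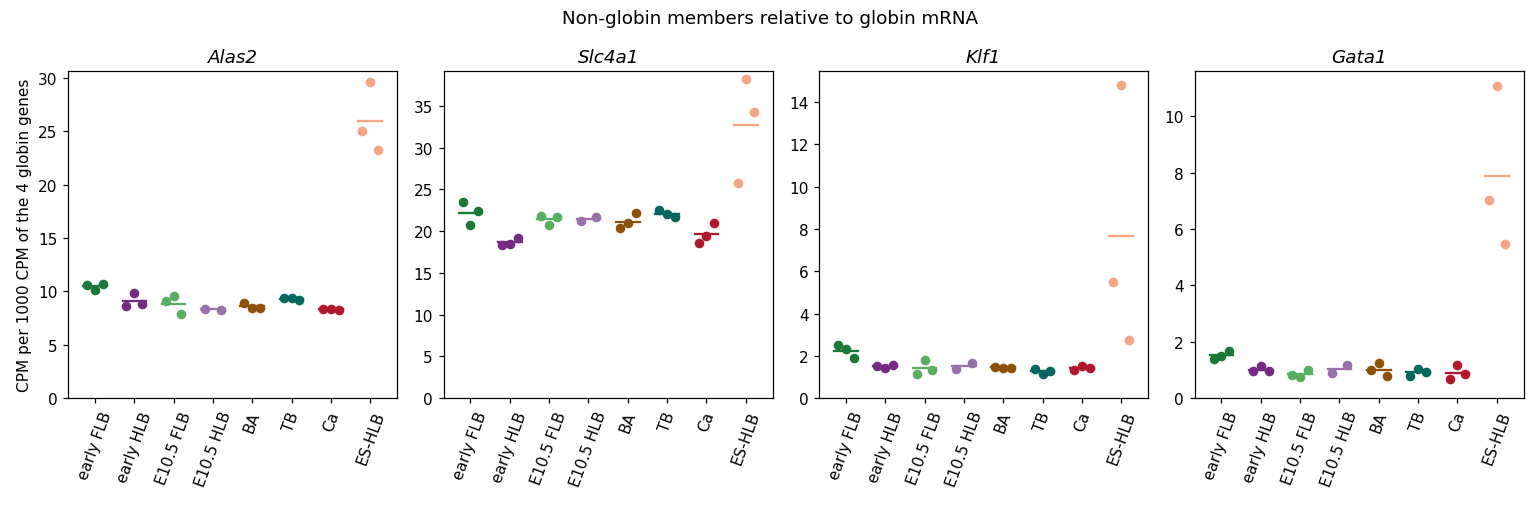
CPM of Alas2, Slc4a1, Klf1 and Gata1 per 1000 CPM of the 4 globin genes, 1 point per library with group means as bars. ES–FLB is left out because its values rest on 0 to 3 reads a library. The ES–HLB libraries lie above all embryonic libraries in the 4 panels.

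The sorted ES–LB cells held little blood mRNA, and the hindlimb culture held more than the forelimb culture. In ES–FLB, Hbb-y was at 3.04, 3.26 and 2.67 scaled CPM, Hbb-bh1 at 0.851, 1.70 and 1.58 and Hba-x at 1.94, 2.22 and 0.729. These values rest on 22 to 25, 7 to 13 and 6 to 17 reads a library. Hba-a1 had 7 reads over the 3 libraries. The erythroid genes were at or under 3 reads in every ES–FLB library, with 4 reads of Alas2, 4 of Klf1, 2 of Gata1 and 5 of Slc4a1 over the 3 libraries together.

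In ES–HLB, Hbb-y was at 38.9, 26.2 and 22.2 scaled CPM, Hbb-bh1 at 59.3, 51.2 and 34.0, Hba-x at 54.7, 31.3 and 25.9 and Hba-a1 at 9.64, 6.82 and 5.13. Alas2 was at 4.06, 3.41 and 2.03 and Slc4a1 at 4.19, 4.41 and 2.98. Klf1, at 0.889, 1.71 and 0.239, was under 3 reads in 1 library, and Gata1 was at 1.14, 1.28 and 0.478. For Klf1 the libraries of ES–HLB and ES–FLB overlapped.

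Against the early LBs all 8 members were lower in both cultures. ES–FLB against the early FLBs gave log2 changes of −9.15 ± 0.30 (Hbb-bh1, adjusted p = 2.8e-15) to −3.18 ± 0.27 (Gata1, adjusted p = 5.1e-12), where 76.9% of all genes were called. The median was −6.97 over the members and 0.03 over all genes. Counted in reads, Hbb-bh1 was 788 times higher in the early FLBs (95% exact interval 561 to 1144, counting error only), Hbb-y 399.7 times (317 to 511) and Gata1, on 2 reads in the cultures, 58.1 times (15.9 to 482). ES–HLB against the early HLBs gave −6.26 ± 0.28 (Hbb-y, adjusted p = 2.6e-13) to −2.03 ± 0.27 (Gata1, adjusted p = 7.3e-08), where 75.2% were called. The ES–LB cells were sorted and came from the EB5 line with the Hand2 knock-in, and the embryonic tissues were unsorted and from Slc:ICR embryos. Culture, sort, strain and genotype therefore cannot be told apart here. All 13 endothelial markers were lower too in both cultures, with sums of 50.6 to 52.6 scaled CPM in ES–FLB and 77.1 to 85.9 in ES–HLB against 477 to 591 in the early LBs.

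All 8 members were higher in ES–HLB than in ES–FLB, where 19.9% of all genes were called. The log2 changes were 4.69 ± 0.30 for Hbb-bh1 (adjusted p = 2.8e-09), 4.16 ± 0.34 for Hba-x (adjusted p = 5.5e-08), 3.28 ± 0.29 for Hba-a1 (adjusted p = 1.6e-07), 3.05 ± 0.28 for Hbb-y (adjusted p = 2.3e-07), 2.62 ± 0.24 for Slc4a1, 2.43 ± 0.29 for Alas2, 1.30 ± 0.27 for Gata1 and 1.02 ± 0.31 for Klf1 (adjusted p = 0.022). On the log2(CPM + 0.5) scale the change of the scarce genes is understated. In reads, ES–HLB was higher 34.9 times for Hbb-bh1 (95% exact interval 24.7 to 51.0), 9.73 times for Hbb-y (7.62 to 12.6), 18.9 times for Alas2 (7.08 to 71.2), 11.4 times for Gata1 (2.80 to 99.97) and 5.44 times for Klf1 (1.84 to 21.8). Klf1 lost its call without ES–FLB replicate 1 or 2 or ES–HLB replicate 1 or 2 (1.00, 0.84, 0.98 and 0.65 on the log2 scale) and at a pseudocount of 1 (0.68, adjusted p = 0.058). In the embryo the early HLBs exceeded the early FLBs by far less, and this contrast between cultures and embryos was called for 7 of 8 members by the interaction term, where 19.9% of all genes were called. It was 4.12 ± 0.43 for Hbb-bh1 (adjusted p = 1.9e-06) and 0.86 ± 0.44 for Klf1 (adjusted p = 0.20), which was called without ES–HLB replicate 3 (1.27, adjusted p = 0.020). Gata1, at 1.15 ± 0.38 (adjusted p = 0.031), lost its call without early FLB replicate 2, early HLB replicate 3, ES–FLB replicate 1 or 3 or ES–HLB replicate 1 or 2 (0.82 to 1.05), and under 4 other settings, without the filter, at a pseudocount of 1, without trend and robust estimation and with only the groups compared (0.69 to 1.15, adjusted p = 0.055 to 0.14).

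The rest of the red cell genes rose in part. Of the 17 membrane genes 8 were higher in ES–HLB and none lower, among them Spnb1 by 1.33 ± 0.26 (adjusted p = 0.0011), while Epb4.1 at −0.08 ± 0.04 and Tmod1 at −0.09 ± 0.22 were not called. Of 14 haem and iron genes 1 was higher, and Tfrc (0.07 ± 0.11), Slc25a37 (0.43 ± 0.23) and Alad (0.02 ± 0.10) were not called. Of 12 regulators 2 were higher. Among the adult globins Beta-s was at 2.79, 2.27 and 1.79 scaled CPM in ES–HLB and at 0.122, 0.261 and 0.121 in ES–FLB (log2 change 2.05 ± 0.33, adjusted p = 0.00013). Markers of other cells moved in the same direction. Endothelial markers were higher for 11 of 13, with Pecam1 at 1.00 ± 0.09 (adjusted p = 7.2e-10), macrophage markers for 4 of 12, with sums of 3.98 to 4.32 against 0.122 to 0.972 scaled CPM and 6 of the 13 genes at 0 in all ES–FLB libraries, and platelet markers for 2 of 8, Itga2b by 1.73 ± 0.22 (adjusted p = 3.9e-07) and Pf4 by 1.29 ± 0.22 (adjusted p = 4.5e-05). Their part in the difference between the cultures was not tested.

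The early β-like mix of ES–HLB was unlike that of any embryonic library. As above, culture, sort, strain and genotype cannot be told apart between ES–HLB and the embryonic libraries. Hbb-bh1 made up 60.4, 66.2 and 60.5% of the early β-like CPM (95% Wilson intervals 56.9 to 63.8, 62.1 to 70.03 and 56.0 to 64.8%, counting error only), against 40.9 to 41.7% in the early HLBs and at most 48.6% in the 20 embryonic libraries. In ES–FLB it was 21.9, 34.2 and 37.1%, on 32, 38 and 35 reads, with intervals from 11.02 to 53.7%. ES–HLB exceeded the early HLBs by 21.0 points and ES–FLB by 31.3 points without overlap (exact two-sided permutation p = 0.10, the smallest possible with 3 against 3, adjusted p = 0.25). The α-like mix did not stand apart, with Hba-x at 85.0, 82.1 and 83.5% in ES–HLB against 82.7 to 83.8% in the early HLBs. Adult β genes were 2.86 to 3.09% of the β-like CPM in ES–HLB, on 15 to 22 reads of Beta-s a library, against 0.305 to 0.423% in the early HLBs. In ES–FLB they were 2.78 to 5.00%, on 1 to 2 reads of Beta-s a library, so a high share was not particular to ES–HLB. Per 1000 CPM of globin, ES–HLB held 23.3 to 29.6 of Alas2 and 25.8 to 38.2 of Slc4a1, above all 20 embryonic libraries, and 5.47 to 11.1 of Gata1 and 2.74 to 14.8 of Klf1, the latter 2 on 4 to 9 and 2 to 12 reads a library. ES–FLB held 17.0 to 40.9 of Alas2 and 17.0 to 46.6 of Slc4a1, each on 1 to 2 reads a library.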

How the data were processed

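RNA-seq of 27 mouse libraries in 9 groups was analysed, grouped by the sample labels. The authors sequenced stranded mRNA as single-end reads. The submitters' processing notes name FastQC 0.11.5, HISAT2 2.0.4, mm10, Cuffdiff, Cufflinks 2.1.1 and edgeR 3.16.2. How strand and reads of near-identical genes were counted is not stated. The authors deposited CPM (1000000 per library), which were not treated as counts. Low values are spaced by 1 read (95.7 to 99.6% within 0.03 of a whole read), which gave depths and floors of 3 reads. Floors and intervals cover counting error only.

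CPM were scaled by an unweighted trimmed mean of log ratios (30% and 5% trimmed), and 14446 genes with 1 CPM in 3 libraries were tested as log2(CPM + 0.5) in 1 limma 3.58.1 model (R 4.3.3, trend, robust) over 26 libraries, with Benjamini-Hochberg adjustment and a threshold of 0.05. Shares were tested by exact permutation (Python 3.11.15, scipy 1.17.1). p-values measure the spread between libraries, which the labels do not tie to separate embryos. The fit was checked on simulated data. Members and lists were chosen with earlier results of these data known. Named were the members, other globins, the 3 most abundant genes of each list and the 10 genes most like the mean of the 8 members with values, of which 1 is not reported here. Listed genes were matched by symbol or, for 8, by older symbol, and 3 of 120 had no match.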

Additional observations from a re-analysis of the deposited data

Results flagged for a closer look

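The excess of the hindlimb over the forelimb culture differed from that of the early HLBs over the early FLBs by the interaction term for 7 members, on the log2 scale by 4.12 for Hbb-bh1, 3.53 for Hba-x, 2.33 for Hba-a1, 2.12 for Slc4a1, 2.11 for Hbb-y, 1.89 for Alas2 and 1.15 for Gata1. Gata1 rests on 2 reads in ES–FLB.

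The library left out of all comparisons, replicate 2 of the E10.5 HLBs, still holds values on chromosome 11, where Hba-x was at 690.6, Hba-a1 at 150.2 and Slc4a1 at 61.2 scaled CPM. Each lies between the values of the 2 HLB libraries of its group.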

How the results depend on the processing

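Counts of members called in Ca, BA, E10.5 HLB against FLB and the ES–LBs against early LBs were the same under all alternatives run. Between stages in the FLBs, 1 member was called, but 0 on the deposited CPM, on CPM recomputed without globins, without the filter, at a pseudocount of 0.1 or without trend and robust estimation, 2 with the 20 embryonic libraries alone, and 0 to 2 with 1 library left out. In the HLBs it was 1, but 2 with the replicate block, 0 with only the groups compared, and 0 to 6 with 1 library left out. For the early HLBs against FLBs it was 2, but 1 at a pseudocount of 0.1, 0 with only the groups compared, and 0 to 4 with 1 library left out. The interaction of stage and limb type had 0, and 0 to 2 with 1 library left out. Between the E10.5 LBs, 3039 genes were called, and 1429 to 2656 with 1 library left out, the former with 1 E10.5 HLB library remaining, assumed to vary like the other groups. For ES–HLB against ES–FLB it was 8, with 7 where Klf1 missed the threshold (a pseudocount of 1 or 4 of the libraries left out) and 6 with only the 2 cultures, where Klf1 and Gata1 failed the filter. For TB it was 7, with 8 at a pseudocount of 1, with the replicate block, with only the groups compared or with the 20 embryonic libraries alone, and 5 to 7 with 1 library left out. The contrast of cultures and embryos had 7, and 6 to 8 over all alternatives, with Gata1 losing its call under 10 of 20. The share differences kept direction and call, from −11.5 to −10.4 points for Hbb-bh1 and −3.08 to −2.55 for Hba-x with 1 library left out. No value changed sign past the threshold, and 1574 of 1637 alternative values of single genes kept their side. The causes were not tested.

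Same-numbered libraries did not deviate together (r above 0.1 in 4 of 31 pairs), so the numbers were not taken to pair samples, and the replicate block otherwise kept each count within 1.5 times. Tests by edgeR and DESeq2 had been planned for recovered reads and were not run, since not all values were whole. The 20 embryonic libraries alone and shares per length were chosen after seeing the data. Depth limits Klf1 and Gata1, and all erythroid genes in ES–FLB.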
